A study of Drosophila melanogaster with 3 samples.

Results

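Binding of the CG8944-eGFP fusion protein was examined at 9 genes of Drosophila melanogaster insulator proteins and their cofactors: Chro, Cp190, BEAF-32, CTCF, su(Hw), mod(mdg4), Ibf1, Ibf2 and pzg. These were 9 of the 18164 genes annotated on the main chromosome arms. They were selected by name, with earlier results of the same peak lists known, in which genes of insulator proteins held reproducible promoter peaks. For each gene, every peak summit was taken that lay within 500 bp of one of its transcription start sites (TSSs), inside the gene, or in the 2 kb on either side. Because the promoter peaks themselves had a part in the choice, the peak levels are given as a description and carry no test.

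Chromatin immunoprecipitation with sequencing (ChIP-seq) was done on whole embryos, 0 to 24 h old and of both sexes, from 1 transgenic fly line that stably expressed CG8944 joined at its C terminus to GFP. Sonicated chromatin, 200 to 800 bp long, was recovered with an antibody against GFP. The 3 biological replicates formed 1 group with no second condition, and all cell types of the embryo were mixed. The deposited files used were 5 lists of peaks with dm6 coordinates: 30000, 30000 and 27393 relaxed entries for replicates 1, 2 and 3, 23886 relaxed entries for the pooled replicates, and 3511 reproducible peaks. Reproducible peaks had passed the authors' threshold on the irreproducible discovery rate (IDR) and were the 3511 entries of the pooled list with the highest signal. Each entry carries the authors' signal value, which was used only to rank or describe entries within a list. The lists hold no read counts, so read depth was unknown and no counting interval could be given.

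Insulators are stretches of DNA that separate regulatory domains and can keep an enhancer from acting on a promoter beyond them. In Drosophila they are bound by sequence-specific proteins, among them BEAF-32, CTCF, Su(Hw) and the insulator-binding factors Ibf1 and Ibf2. These recruit cofactors with BTB domains, CP190 and the products of mod(mdg4). Chromator, encoded by Chro, and Z4, encoded by pzg, are partners found in the interbands of polytene chromosomes and at many borders of chromatin domains. The mod(mdg4) locus is known for trans-splicing: a common 5' part is joined to many different 3' parts, some of which are transcribed from the opposite strand.

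The 3 strongest summits lay in or beside short stretches between start sites on opposite strands, and the sequences of 3 such stretches and of 1 intron are shown because the letters discussed below can be read in them. They come from the RefSeq genome sequence of the dm6 assembly and are printed 5' to 3' on the minus strand, the coding strand of Chro, Cp190, CTCF and mod(mdg4). Capitals mark CTTAAA or its reverse complement TTTAAG in the first 3, and CGATA in the last. The Cp190 stretch is chr3R:15275242-15275521, all 280 bases between the starts of CG4338 and Cp190. The mod(mdg4) stretch is chr3R:21365489-21365608, the 120 bases inside an intron between starts of precursor RNAs on both strands. The Chro stretch is chr3L:22878985-22879088, the 104 bases between the starts of Ssl1 and Chro. The CTCF stretch is chr3L:7356466-7356566, the summit base in the intron with 50 bases on either side.
Cp190: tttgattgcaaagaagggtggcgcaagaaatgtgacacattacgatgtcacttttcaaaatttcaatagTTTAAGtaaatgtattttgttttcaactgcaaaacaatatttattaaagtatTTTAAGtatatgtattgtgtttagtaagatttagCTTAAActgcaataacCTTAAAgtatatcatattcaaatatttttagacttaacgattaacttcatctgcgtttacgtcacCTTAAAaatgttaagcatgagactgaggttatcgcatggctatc
mod(mdg4): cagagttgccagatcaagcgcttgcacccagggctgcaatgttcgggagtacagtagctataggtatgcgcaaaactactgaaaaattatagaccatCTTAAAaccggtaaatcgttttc
Chro: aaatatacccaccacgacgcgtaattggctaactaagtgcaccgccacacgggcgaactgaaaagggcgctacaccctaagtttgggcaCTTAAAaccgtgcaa
CTCF: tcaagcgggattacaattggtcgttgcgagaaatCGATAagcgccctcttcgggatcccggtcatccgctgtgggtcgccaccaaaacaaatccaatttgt

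Promoters of 5 of the 9 genes, Chro, Cp190, BEAF-32, CTCF and pzg, held a reproducible summit within 500 bp of a TSS. Such a summit was present at 2570 of all 18164 genes (14.1%) and at 2381 of 13945 protein-coding genes (17.1%). With the gene body and 2 kb on either side counted, mod(mdg4) joined them and made 6 of 9, against 27.2% of all genes and 30.5% of protein-coding genes. mod(mdg4) spans 26556 bp, and of the 784 genes at least as long, 423 (54.0%) held a reproducible summit in that range. No reproducible summit fell in or around su(Hw), Ibf1 or Ibf2.

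In the relaxed pooled list, 7 of 9 promoters held a summit, against 39.9% of all genes. In or around the gene, 8 of 9 held one, with Ibf2 as the exception, against 74.5% of all genes. Relaxed lists of single replicates gave a promoter summit at 6, 7 and 7 members in replicates 1, 2 and 3, where the shares of all genes were 45.1%, 40.5% and 41.8%. The 3511 strongest entries of each replicate, as many as the reproducible list holds, reached the promoters of 4, 4 and 6 members, against 14.0%, 13.4% and 14.3% of all genes. Chro, Cp190, CTCF and pzg were the 4 whose promoters held one of these strongest entries in all 3 replicates, which was so for 10.2% of all genes. In replicate 3 the promoters of BEAF-32 and mod(mdg4) joined them.

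**Figure D1:**
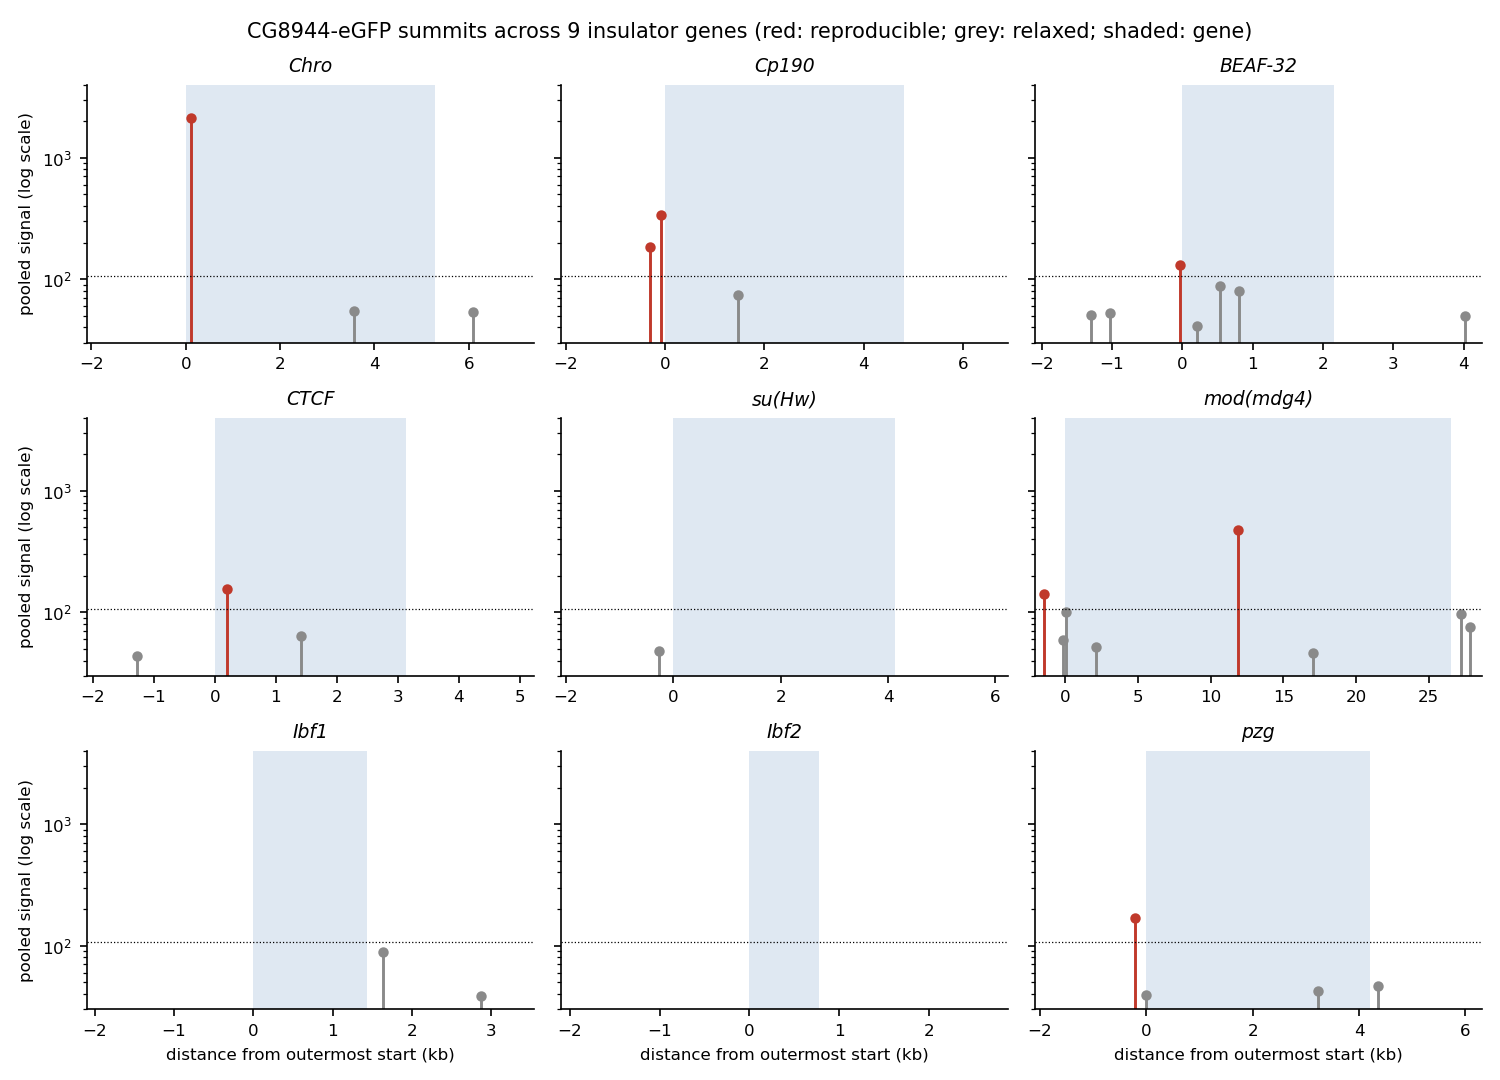
Summits of the pooled list along each of the 9 genes. The horizontal axis is the distance from the outermost start site in kb, in the direction of transcription, the vertical axis the authors' pooled signal on a log scale, the shading the gene, and the dotted line the lowest reproducible signal of 107. Red marks reproducible summits and grey relaxed ones; Chro reaches 2139, su(Hw) has 1 grey summit at 48.0, and the Ibf2 panel is empty.

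Chro held the strongest peak of the set. Chro (FBgn0044324; chr3L:22873702-22878984, minus strand) encodes Chromator, a chromodomain protein of interbands and of the mitotic spindle matrix. Its peak, chr3L:22878694-22879104, had a pooled signal of 2139 and was the fifth strongest of the reproducible list (rank 5). The replicate signals were 688, 798 and 669 in replicates 1, 2 and 3, at ranks 7, 5 and 6. No replicate stood apart, and the 3 summits fell within 15 bp of each other. Over the median signal of the 3511 strongest entries of the same list, the peak was 12.2 ± 0.846 times as high (SD, n = 3).

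The Chro summit lay 103 bp downstream of the TSS, in the 5' UTR. It was also 208 bp upstream of the start of Ssl1, the gene of a subunit of the transcription factor TFIIH, which starts 105 bp away on the other strand. The summit was thus on the Chro side of the gap between both starts in every list, and it was not within the 104 bases printed above. Apart from this peak, Chro carried just weak entries. The pooled list had 2 more, at signals of 54.3 and 54.0 and ranks 10805 and 10918, and neither was near a start of Chro.

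pzg, which encodes the zinc-finger protein Z4 that partners Chromator, had a peak of average strength. The gene (FBgn0259785; chr3L:21286099-21290310, plus strand) starts 137 bp from the divergent gene CG12974. Its reproducible summit had a pooled signal of 170.0 (rank 1817) and lay 210 bp upstream of the pzg start, which is 73 bp inside CG12974. Replicate signals were 45.8, 64.0 and 67.4 at ranks 2829, 1630 and 1262, or 1.01 ± 0.235 times the median of the strongest entries (SD, n = 3). Replicate 1 was the lowest. The summits of the replicates were 138 bp apart at most, so that this peak was placed less exactly than that of Chro. A further weak pooled summit 10 bp upstream of the pzg start had a signal of 39.5 (rank 22040). In replicates 1 and 2 the same entry, at ranks 2829 and 1630, matched both pooled peaks. Whether these are separate binding events was not tested.

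**Figure D2:**
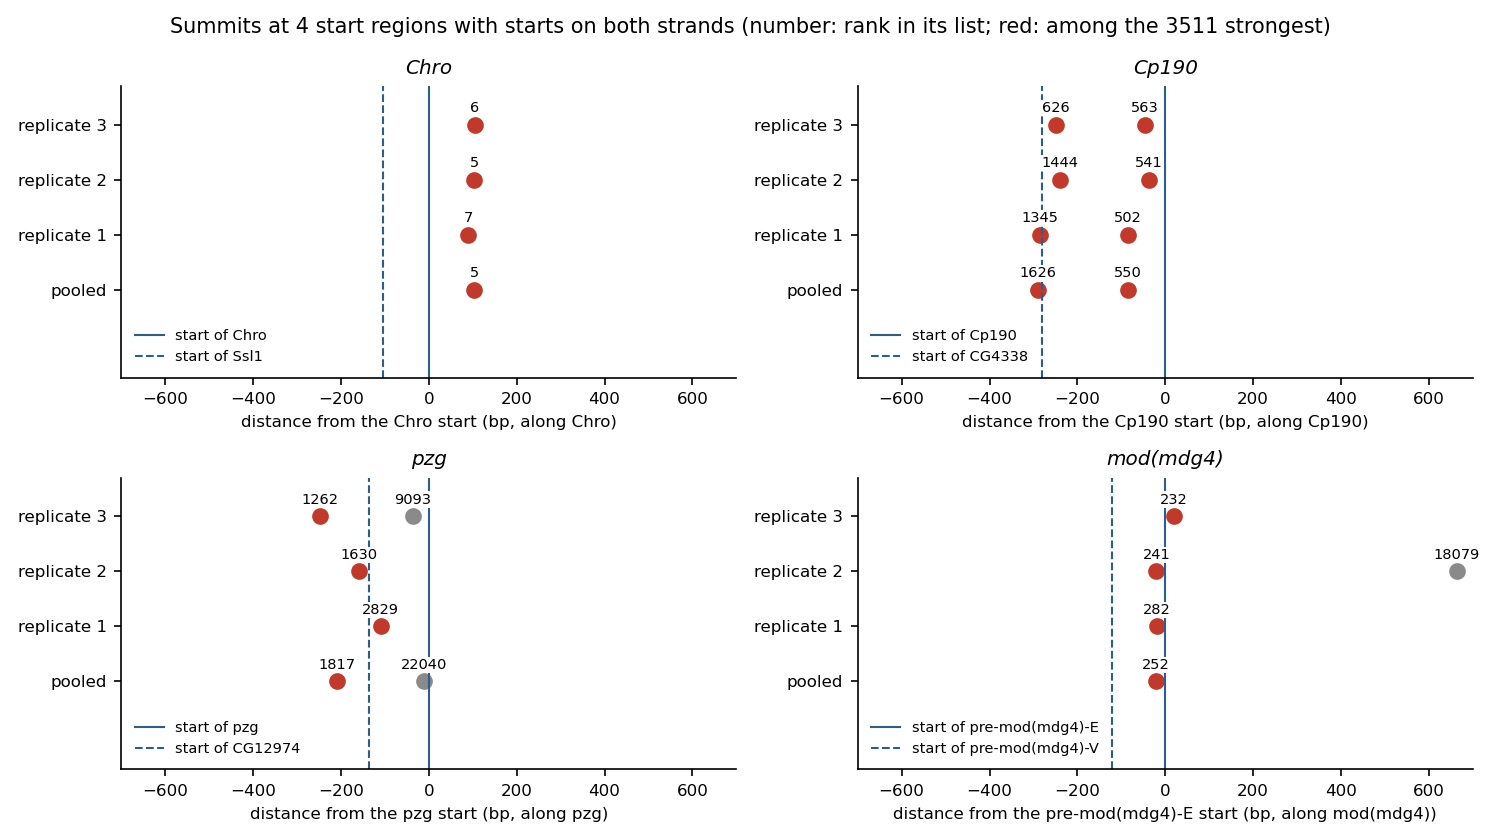
Summits around 4 start regions in the pooled list and in each replicate. The horizontal axis is the distance in bp from the named start, along the direction of the named insulator gene, vertical lines mark the start sites, and the number above each point is its rank in its own list. The Chro summits (ranks 5 to 7) and both Cp190 summits recur in all lists, whereas the pzg summits are spread over both sides of the CG12974 start.

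Cp190 had 2 reproducible summits in front of it. Cp190 (FBgn0000283; chr3R:15270432-15275241, minus strand) encodes the BTB and zinc-finger protein CP190, a cofactor shared by most insulator complexes of the fly. The gene starts 281 bp from the divergent gene CG4338. The stronger summit lay 85 bp upstream of the Cp190 start and 196 bp upstream of that of CG4338, inside the stretch printed above, and had a pooled signal of 335 (rank 550). Its replicate signals were 121, 117 and 106 at ranks 502, 541 and 563. That is 1.94 ± 0.0458 times the median of the strongest entries (SD, n = 3), and the 3 replicates were nearly level.

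The weaker Cp190 summit had a pooled signal of 184 (rank 1626) and in that list lay 290 bp upstream of Cp190, 9 bp inside CG4338. It was 4 bp inside CG4338 in replicate 1, but 41 and 33 bp upstream of the CG4338 start in replicates 2 and 3. Signals of 71.4, 69.0 and 99.9 at ranks 1345, 1444 and 626 gave 1.37 ± 0.380 times the median (SD, n = 3). Replicate 3 was higher here than the other replicates, and in it both Cp190 summits were of almost equal strength. The summits of the pair were 205 bp apart in the pooled list and 200, 203 and 202 bp apart in the replicates. No 2 summits of any list were closer than 199 bp, and 798 of 23880 neighbouring pairs in the pooled list were up to 210 bp apart. Whether the pair stands for separate binding events or for 1 broad region was not tested.

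At mod(mdg4) the strongest peak was far from the promoter. mod(mdg4) (FBgn0002781; chr3R:21350846-21377401, minus strand) has 22 annotated transcripts, all with the same start. Its leading summit had a pooled signal of 478 (rank 252) and lay 11892 bp downstream of that start, in an intron. Replicate signals of 154, 173 and 159 came at ranks 282, 241 and 232, or 2.74 ± 0.182 times the median of the strongest entries (SD, n = 3). The replicates did not stand apart from each other, and their summits were 39 bp apart at most. This peak was listed with a width of 195 bp and the stronger Cp190 peak with 153 bp, whereas the width was 400 bp for 80.2% of reproducible peaks and under 200 bp for 10.5%. In replicates 1, 2 and 3 the mod(mdg4) peak was 396, 99 and 96 bp wide. The Cp190 peak was 396, 384 and 384 bp wide there, so it was narrow just in the pooled and reproducible lists.

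The annotation places start sites of mod(mdg4) precursor RNAs around this intronic summit. It was 21 bp upstream of pre-mod(mdg4)-E and 219 bp upstream of pre-mod(mdg4)-C and pre-mod(mdg4)-AB, which run in the direction of mod(mdg4). It was also 100 bp upstream of the common start of 7 precursors on the opposite strand, pre-mod(mdg4)-U, -V, -W, -X, -Y, -AD and -AE. These are separately annotated RNAs that supply 3' parts for trans-splicing. At another start inside the locus, that of pre-mod(mdg4)-T and pre-mod(mdg4)-Z, the signal was low. The nearest pooled summit, 209 bp downstream of it, had a signal of 46.3 (rank 15486).

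The second reproducible mod(mdg4) summit lay outside the gene and next to another one. It had a pooled signal of 140.3 (rank 2429), 1417 bp upstream of mod(mdg4) but 159 bp upstream of tin, the homeobox gene tinman of heart and mesoderm. Replicate signals of 45.4, 45.7 and 38.3 gave 0.729 ± 0.0315 times the median (SD, n = 3). At the mod(mdg4) start itself the pooled list had 2 relaxed summits, 46 bp downstream with a signal of 101 (rank 3790) and 156 bp upstream with 58.8 (rank 9084). Each replicate had 1 entry there, at ranks 4426, 7715 and 2733. So the promoter was just outside the reproducible list, and replicate 3 alone ranked it among its strongest entries.

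BEAF-32 carried the weakest of the reproducible summits. The gene (FBgn0015602; chr2R:14770469-14772630, plus strand) encodes a DNA-binding protein of boundary elements that reads the letters CGATA. The summit was 25 bp upstream of the outermost start, and the antisense RNA gene asRNA:CR42254 starts 174 bp from it on the other strand. The pooled signal was 129.9 (rank 2701). In the replicates the signal was 32.7, 33.3 and 62.8 at ranks 4859, 4463 and 1430. Replicate 3 was therefore the only one with this summit among its 3511 strongest entries, and the spread was wide, at 0.740 ± 0.343 times the median (SD, n = 3). No pair of replicates had this summit among the strongest entries of both.

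With 2 kb on either side counted in the length, BEAF-32 had more entries for its length than the other members. No density over all genes is given. The pooled list held 7 summits in the gene and its flanks, the reproducible one included. This was 1.14 per kb, where the other members had 0 to 0.487 per kb. Among the BEAF-32 summits were 2 at the internal starts of the gene, with signals of 88.1 (rank 4556) and 79.8 (rank 5282), both found again in all 3 replicates. The one at 79.8 was 25 bp from an internal BEAF-32 start, but 19 bp from a start of asRNA:CR42254. Another 2 were nearest to the start of the neighbouring gene Spred, with signals of 52.2 and 50.2. In replicates 1, 2 and 3 BEAF-32 had 1.30, 0.811 and 0.811 entries per kb. The highest other member had 0.754 (Chro), 0.795 (Cp190) and 0.561 (CTCF), so the lead was slight in replicate 2.

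CTCF, the fly counterpart of the vertebrate insulator protein of that name, had a peak inside its first part. The gene (FBgn0035769; chr3L:7353578-7356713, minus strand) has 1 annotated start, and the nearest divergent one is 3848 bp away. The summit was 197 bp downstream of the start, in an intron of CTCF that an antisense RNA gene overlaps. Its pooled signal was 155 (rank 2087). Replicate signals of 55.3, 41.0 and 56.7 at ranks 2056, 3137 and 1684 gave 0.869 ± 0.182 times the median of the strongest entries (SD, n = 3), with replicate 2 the lowest. Unlike Chro, Cp190 and pzg, CTCF did not share its summit with the promoter of another protein-coding gene.

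su(Hw), Ibf1 and Ibf2 encode zinc-finger and BED-finger proteins that bind DNA and recruit CP190. su(Hw) (FBgn0003567; chr3R:14304455-14308589, minus strand) had a single pooled summit, 276 bp upstream of its start and 224 bp upstream of the divergent gene Polr2I, with a signal of 48.0 (rank 14228). Replicates 2 and 3 had it at ranks 28719 and 16949. Replicate 1 had none, and its nearest entry was 2665 bp from the su(Hw) start. The nearest reproducible summit was 18417 bp away.

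Ibf1 (FBgn0037670; chr3R:9258964-9260400, plus strand) and Ibf2 (FBgn0037669; chr3R:9257727-9258501, minus strand) are neighbours that start 463 bp apart on opposite strands. None of the 5 lists had an entry within 500 bp of either start. The nearest pooled summit, with a signal of 89.1 (rank 4495), was 1636 bp from the start of Ibf1, past its 3' end and 38 bp upstream of ATP6AP2. In the replicates this entry ranked 7416, 19270 and 3190. For Ibf2 the nearest entry of any list was 1342 bp from its start, in replicate 2 at rank 28951. The nearest reproducible summit was 11887 bp from Ibf1 and 11424 bp from Ibf2. The divergent starts of Chro, Cp190 and pzg each had a reproducible summit within 500 bp. Ibf1 and Ibf2 had none, and neither had su(Hw), which starts 500 bp from the divergent gene Polr2I. Such a summit was present at 14.1% of all genes.

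**Figure D3:**
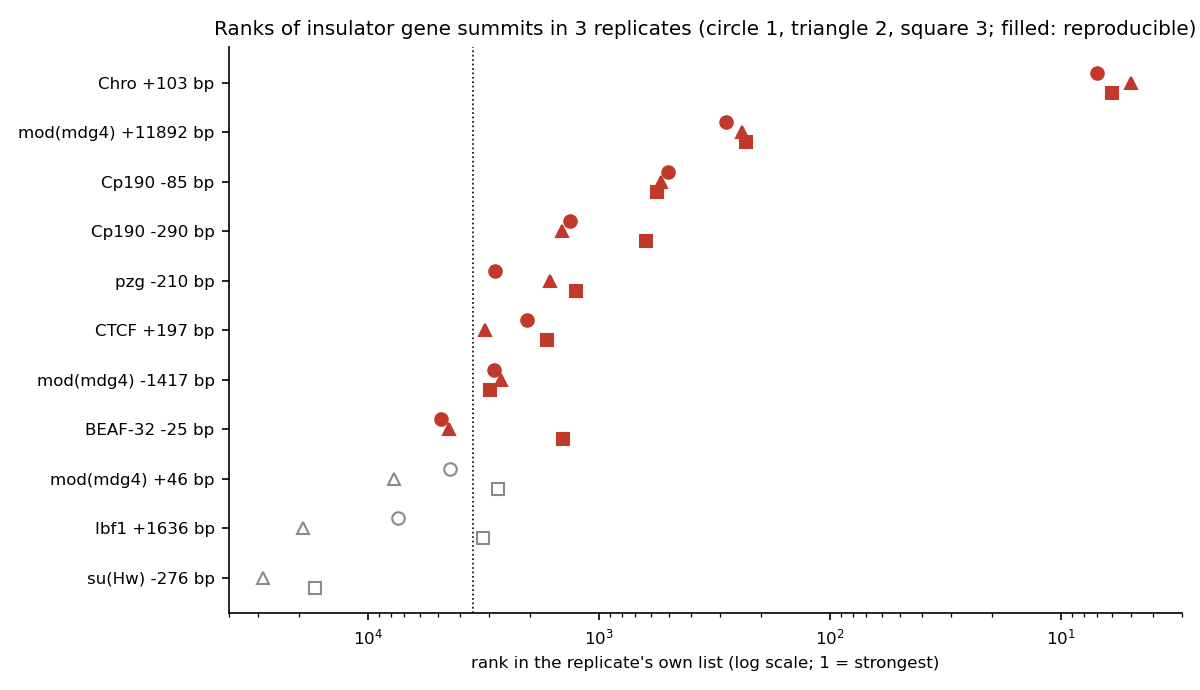
Rank of each summit in the 3 replicate lists, for the 8 reproducible summits (filled) and 3 relaxed ones (open). The horizontal axis is the rank on a log scale with the strongest to the right, circles, triangles and squares are replicates 1, 2 and 3, and the dotted line is rank 3511. Chro stands alone at ranks 5 to 7, and the BEAF-32 summit has 1 replicate to the right of the line and 2 to its left.

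In descending order of pooled signal the reproducible summits were Chro (2139), mod(mdg4) intron (478), Cp190 (335 and 184), pzg (170.0), CTCF (155), the summit between mod(mdg4) and tin (140.3) and BEAF-32 (129.9). In units of the median of the strongest entries, Chro was above the intronic mod(mdg4) summit and that above the stronger Cp190 summit in every replicate. Further down, each neighbouring pair in the order overlapped in its replicate values, from the weaker Cp190 summit to BEAF-32. BEAF-32 at 129.9 was the lowest member summit in the reproducible list, at rank 2701 of 3511, and the lowest signal of that list was 107. The members' next summits, outside the list, were the mod(mdg4) promoter at 101 and an entry past the 3' end of mod(mdg4) at 96.6, followed by the Ibf1 entry at 89.1.

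All 8 summits lay within 500 bp of some annotated TSS, of the gene itself or of a neighbour. So did 1907 of the 3511 reproducible peaks. For 6 of the 8 it was a start of the member itself, and promoter peaks had a part in the choice of members. All 8 could be placed among the 1907 reproducible promoter peaks. The median signal of these was 184, with quartiles of 136 and 285. Chro was number 4 of them at 11.6 times the median, and the intronic mod(mdg4) summit was number 169 at 2.59 times. The stronger Cp190 summit, at 1.82 times, was number 354, also above the upper quartile. The weaker Cp190 summit matched the median (1.00 times). pzg at 0.922, CTCF at 0.843, the tin summit at 0.761 and BEAF-32 at 0.704 times were below it. In all 3 replicates, 7 of the 8 summits were matched by an entry among the 3511 strongest, against 69.7% of the promoter peaks. BEAF-32, with 1 replicate, was in a class that held 8.29% of them. Across replicates the summits of promoter peaks spread over a median of 39 bp (quartiles 20 and 70). Chro and the tin summit at 15 bp and BEAF-32 at 11 bp were tighter than that range, and pzg at 138 bp was wider.

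**Figure D4:**
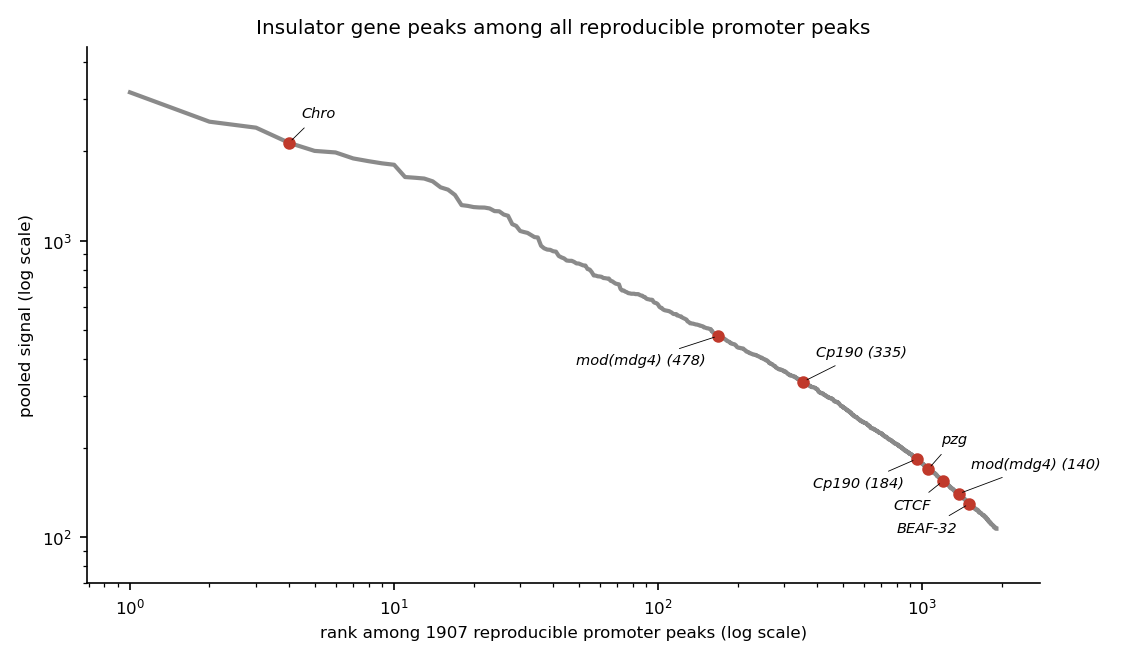
Pooled signal of the 1907 reproducible promoter peaks in order of rank, both axes on a log scale. The grey line joins all peaks and red points are the 8 peaks of the insulator genes, with the signal in brackets where a gene has 2. Chro is number 4, the next summits follow at 169 and 354, and the other 5 lie between 953 and 1506.

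Letters known for insulator proteins or for other DNA-binding proteins were sought within 50 bp of the 8 summits on both strands. CGATA, the core read by BEAF-32, was found at 3 of them, Chro, CTCF and pzg, and in 24.4% of the 1907 reproducible promoter peaks. In the printed CTCF intron it begins at position 35. BEAF-32's own summit had no CGATA in that window. The full DNA replication-related element (DRE), TATCGATA, which contains CGATA, was at none of the 8 and in 4.20% of promoter peaks. Nor were the CTCF core AGGNGGC (3.88% of promoter peaks), the Su(Hw) core GCATACTT (0.839%), GAGAG of GAGA factor (9.28%), the M1BP core GGTCACAC (2.31%) or the E-box CAGCTG (5.98%). With 100 bp on either side, the stronger Cp190 summit gained DRE and CGATA. A copy of CGATA apart from the DRE begins at position 266 of the printed Cp190 stretch, on the other strand.

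The letters CTTAAA stood out at strong peaks in general and recurred at members. Among the 200 strongest reproducible peaks, with those of the members left out, CTTAAA was present at 22.5%, against 6.20% of relaxed entries. It led the 6-letter words by the difference in share divided by the square root of the relaxed share. By the plain difference TTAAAA was ahead of it, with 32.5% against 11.4%, and by the ratio AACTTA was, with 18.0% against 4.62%. It was chosen after these values were seen. Within 50 bp of the summit it was found at 4 of the 8 summits, Chro, the stronger one of Cp190, BEAF-32 and the intronic one of mod(mdg4), and in 14.4% of promoter peaks. Those of Chro, mod(mdg4) and Cp190 were the strongest member summits. At the 200 strongest peaks, from which the word was taken, the share was 22.5%. With 25 bp on either side CTTAAA was found at the Cp190 and mod(mdg4) summits and in 7.66% of promoter peaks. In the printed mod(mdg4) stretch it begins at position 98 and the summit is at position 100. The printed Chro stretch, which does not hold the summit, has 1 copy at position 90. That copy is more than 100 bp from the summit and is not the one counted above, which is not printed. Of windows of that length centred on promoter summits, which the Chro stretch is not, 14.7% had at least 1.

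The Cp190 stretch held 5 copies of CTTAAA on either strand, beginning at positions 70, 122, 156, 172 and 237, with the stronger summit at position 196. In windows of the same 280 bp centred on the 1907 promoter summits the median was 0 copies, 31.2% had at least 1, and 5 was the highest number. It occurred in a single window, which was that of Cp190 itself. The stretch was rich in A and T (71.1%), and how far base composition accounts for the copies was not tested. Around the summits, A and T made up 73.3% of 101 bases at the stronger Cp190 summit and at pzg, and 48.5% at CTCF. The median of promoter peaks was 62.4% (quartiles 55.4 and 68.3).

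Genes of related architectural proteins were counted in the same way, from 3 lists. Of 11 further DNA-binding proteins, 4 (36.4%) had a reproducible promoter summit: Trl, the gene of GAGA factor (signal 427), Dref, whose product binds the DRE (177), M1BP (153) and pita (139). Of 9 further cofactors, 4 (44.4%) had one: Nup98-96, a nucleoporin gene (475), lolal, which encodes a BTB protein (294), shep, which encodes an RNA-binding protein (195), and the kinase gene JIL-1 (118). Of 9 genes of cohesin, condensin and topoisomerase II, the condensin genes Cap-H2 (297) and barr (153) had one (22.2%). Together these were 10 of 29 genes (34.5%), beside 5 of the 9 members (55.6%) and 14.1% of all genes. The median signal of the strongest promoter summit was 170.0 for the 5 members and 186 for the 10 others, and none of the others reached the signal of Chro.

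Genes whose promoter peak ranked most like that of a member were sought over the 3 replicates, by the Euclidean distance between log10 ranks. Nearest to Chro were ph-p, a Polycomb group gene (ranks 8, 8 and 7; distance 0.223), px (3, 4 and 4; 0.419), and Art3 and mRpS10, which share a peak (11, 12 and 5; 0.435). Nearest to Cp190 was Aef1, a zinc-finger gene (546, 539 and 575; 0.038). CG34056 was nearest to CTCF (0.053), Argk1, the arginine kinase gene, to pzg (0.036), and CG5290 to BEAF-32 (0.086). CG5290 ranked 5748, 4641 and 1577 in replicates 1, 2 and 3, an unevenness like that of BEAF-32 that follows from how it was picked.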

How the data were processed

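ChIP-seq peak lists of 3 replicates were used. Per the deposited file listing, the authors called relaxed peaks in each replicate and in the pooled replicates, with a control alignment, and derived the reproducible list by IDR. No control library was analysed here. No aligner, caller, version or threshold is named in the labels or headers. The signal per peak is the authors' deposited value, of unknown scale. The summit is their deposited offset within the peak. All 3511 reproducible peaks were in the pooled list with identical values. Replicates shared 210 to 361 summit positions and 0 signal values, and were counted as separate samples. Lists on the dm3 build were not used.

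Genes came from Ensembl release 115 (BDGP 6.54) without transposable elements, and sequences from the RefSeq genome of the same assembly. Summits were placed by position (1-based); a replicate entry matched a pooled peak by an overlap of 1 bp or more, taking the entry with the nearest summit. Replicate signals were divided by the median of the 3511 strongest entries of their list. The members, gene lists and motifs were chosen with earlier results of these data known. Named genes were the 9 members, at most 4 genes with a reproducible promoter summit per list, the 4 genes most like Chro and 1 per other member, and neighbours with a start within 500 bp of a shared summit. SA was looked up as SA1. Alternatives were promoter windows of 200 and 1000 bp, other flanks, stronger or relaxed lists, other numbers of strongest entries, motif windows of 25 and 100 bp, and leaving out each replicate. Counting steps were tested on simulated data. Python 3.11.15, numpy 2.4.6, pandas 2.3.3 and matplotlib 3.10.9 were used.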

Additional observations from a re-analysis of the deposited data

How the results depend on the processing

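Shares of all genes are given in brackets. The number of members with a reproducible promoter summit, 5 of 9, was 4 with a window of 200 bp (9.97%; pzg, whose summit is 210 bp upstream, was lost). It was 5 with 1000 bp (17.1%), with coding starts only (17.1% of protein-coding genes) or with peak overlap (15.5%). In the pooled relaxed list it was 7 (39.9%). Among the reproducible peaks with signals above the list's median it was 2, Chro and Cp190 (7.94%). For the gene with its flanks, 6 of 9, the number was 3 with no flank (8.08%), namely Chro, CTCF and mod(mdg4). It was 6 with 5 kb (39.5%) and 3 among the peaks above the median signal (16.0%), namely Chro, Cp190 and mod(mdg4). Members with one of the strongest entries in all 3 replicates numbered 4. This became 2, Chro and Cp190, with the strongest 2000 entries (6.67%) and with a window of 200 bp (6.50%), and 5 with the strongest 5000 (12.6%).

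The 3 matches of known motifs at member summits, all CGATA, became 2 with 25 bp, where 13.8% of promoter peaks had CGATA. They became 5 with 100 bp, which added DRE and CGATA at Cp190 (7.87% and 41.4% of promoter peaks). CTTAAA, not counted there, was at 4 summits, at 2 with 25 bp (7.66%) and at 5 with 100 bp (24.4%).

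Leaving out a replicate also added a requirement, an overlap with a strongest entry in each of the other replicates, which 76.4% to 77.5% of the reproducible peaks met. The reproducible list was filtered and not made anew, so the replicate left out still had a part in every peak counted. These numbers therefore cannot show what the list would be without a replicate. Under it the promoter number was 4 to 4 (11.2% to 11.4%) and that for the gene with its flanks 5 to 5 (22.1% to 22.3%). BEAF-32 was missing each time, as it was from the strongest entries of all 3 replicates, so this loss does not come from leaving out any replicate. No paired analysis was possible because the replicates form 1 group and no test was run.

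These are counts of 9 genes in 3 libraries. Signal is not read depth, so an absent entry, as at Ibf1 and Ibf2, says only that none was listed. The lists of replicates 1 and 2 end at exactly 30000 entries, and weak sites below that are not listed. A summit between divergent starts counts for both genes. Whole embryos of 0 to 24 h mix stages and cell types, and a peak held by few cells cannot be told apart from a weak one in many.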
